A study of Homo sapiens with 6 samples.

Results

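Wnt signaling genes were examined in U87-MG, an established human glioblastoma (GBM) cell line, with and without CHRM3 knockdown. The 10 genes were taken by name, as the ligands WNT5A and WNT5B, the secreted inhibitors DKK1, DKK3 and SFRP1, the receptors FZD2 and FZD7, the intracellular signal carrier CTNNB1, the nuclear factor LEF1 and the feedback target AXIN2. All 10 were found among the 61731 genes and loci of the deposited table. The data comprised 6 RNA-sequencing libraries, 3 of control U87 cells (NC, labelled as normal control and called negative control in the paper) and 3 of cells labelled as CHRM knockdown (KD). Both groups shared the cell line, and no other treatment was labelled. Knockdown was made with lentivirus, and which of the KD sequences the libraries carried and whether replicates came from separate cultures are not given in the sources used here, so p-values measure only the spread between these libraries, which may be technical.

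Wnt proteins are secreted lipid-modified ligands that bind frizzled (FZD) receptors. In the canonical branch, binding with the co-receptors LRP5 and LRP6 halts a destruction complex, and β-catenin, the product of CTNNB1, accumulates and activates target genes with factors of the TCF/LEF family. WNT5A and WNT5B act mostly through β-catenin-independent branches, which steer cell polarity and movement, and WNT5A is known for a role in the invasiveness of GBM cells. Dickkopf and secreted frizzled-related proteins limit the signal from outside the cell.

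Of the 10 genes, WNT5B was higher and DKK1 was lower in the KD libraries by margins well beyond the spread between replicates. CTNNB1 was slightly lower, close to the median change of all tested genes, and its call was kept in 7 of 15 alternative fits. The promoters of DKK1 and WNT5B are shown because these genes had the clearest changes in opposite directions. The sequences are those of RefSeq (GRCh38.p14, plus strand), from 250 bases before the transcription start to 50 bases from it on, and capitals mark matches to the TCF/LEF binding motif, searched on both strands with the letters CTTTGAA, then with CTTTGAT, then with CTTTGTA and then with CTTTGTT.
DKK1, chr10:52314031-52314330: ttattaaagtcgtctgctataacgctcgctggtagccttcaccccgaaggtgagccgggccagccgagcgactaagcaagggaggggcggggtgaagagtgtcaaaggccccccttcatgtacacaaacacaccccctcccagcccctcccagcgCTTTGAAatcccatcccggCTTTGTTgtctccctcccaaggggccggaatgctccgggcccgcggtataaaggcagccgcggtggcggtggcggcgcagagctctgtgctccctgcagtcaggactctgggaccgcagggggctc
WNT5B, upstream window, chr12:1616806-1617105: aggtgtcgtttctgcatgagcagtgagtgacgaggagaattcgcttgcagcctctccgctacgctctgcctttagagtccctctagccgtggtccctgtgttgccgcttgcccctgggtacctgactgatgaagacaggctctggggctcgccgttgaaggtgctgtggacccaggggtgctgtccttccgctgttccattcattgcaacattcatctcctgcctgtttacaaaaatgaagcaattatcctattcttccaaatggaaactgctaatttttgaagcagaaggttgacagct
WNT5B, downstream window, chr12:1628981-1629280: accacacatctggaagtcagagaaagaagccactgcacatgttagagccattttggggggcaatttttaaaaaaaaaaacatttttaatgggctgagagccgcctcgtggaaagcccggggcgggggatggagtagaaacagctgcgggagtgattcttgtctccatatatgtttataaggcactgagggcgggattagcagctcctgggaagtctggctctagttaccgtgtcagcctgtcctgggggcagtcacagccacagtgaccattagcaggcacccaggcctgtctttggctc
The DKK1 promoter held 2 matches, CTTTGAA beginning 95 bases and CTTTGTT beginning 76 bases before the start. At least 1 match was held by 13.8% of the 34943 promoter windows of this length, and 2 or more by 1.59%. Both WNT5B windows lie at RefSeq starts within the GENCODE span of the gene given below, and no window here covers the 5′ end of that span. Neither WNT5B window held a match, nor did the windows of WNT5A, LEF1 and CTNNB1, which were searched in the same way. In all, 7 windows of 5 of the 10 genes were searched. A match describes letters only, and binding was not measured.

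Values are TPM, a level scaled by transcript length and by the library total, so that genes can be compared. The level of CHRM3, which encodes the muscarinic acetylcholine receptor M3, was 0.02, 0.09 and 0.13 TPM in NC replicates 1 to 3 and 0.13, 0.01 and 0.02 TPM in KD replicates 1 to 3. The groups overlapped (p = 0.80 by an exact permutation test, two-sided, which with 3 against 3 cannot give less than 0.10), so a reduction was not detectable, and each direction given here rests on the KD labels. Of 7 glial and glioma markers, VIM (6574 ± 77.2 TPM in NC, SD, n = 3) and CD44 (597.3 ± 21.6 TPM) were abundant, GFAP was 1.16 ± 0.219 TPM, and SOX2, OLIG2 and S100B stayed below 1 TPM in every library. Of 7 leukocyte markers, 6 stayed below 1 TPM in every library and CD3E and TYROBP were listed at 0, while CD68 fell, so that the summed level was 249.2 to 253.7 TPM in NC and 170.6 to 177.4 TPM in KD. Of 4 endothelial markers, KDR fell and the summed level was 3.37 to 3.58 TPM in NC and 1.43 to 1.51 TPM in KD. VIM and NES rose and CD44 fell beside them. The part of these markers in the results below was not tested.

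Testing was restricted to genes that averaged 1 TPM or more across the 6 libraries, and these were compared by limma on log2(TPM + 1), with Benjamini-Hochberg adjustment over all 13722 such genes, and a gene was called at an adjusted p under 0.05. Of the 10 Wnt genes, 8 were tested, and AXIN2 and SFRP1 were below the limit. Of the 8, 2 were lower and 1 was higher. Over all tested genes, 24.0% were called lower and 12.1% higher, 36.1% in either direction, and the share of the Wnt genes called was 37.5%, near that background. The groups did not overlap for 4 of the 8 genes, against 50.2% of all tested genes. The median log2 fold change was 0.05 for the 8 genes and -0.06 for all tested genes. None of the 8 reached a log2 fold change of 1 in either direction, which with the adjusted p was reached by 1.87% of all tested genes. An unadjusted limma p under 0.05 was reached by 4 of the 8, and no share of all tested genes was taken at that limit. With median-of-ratios scaling or quantile normalization, 1 gene was lower and 1 higher.

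**Figure D1:**
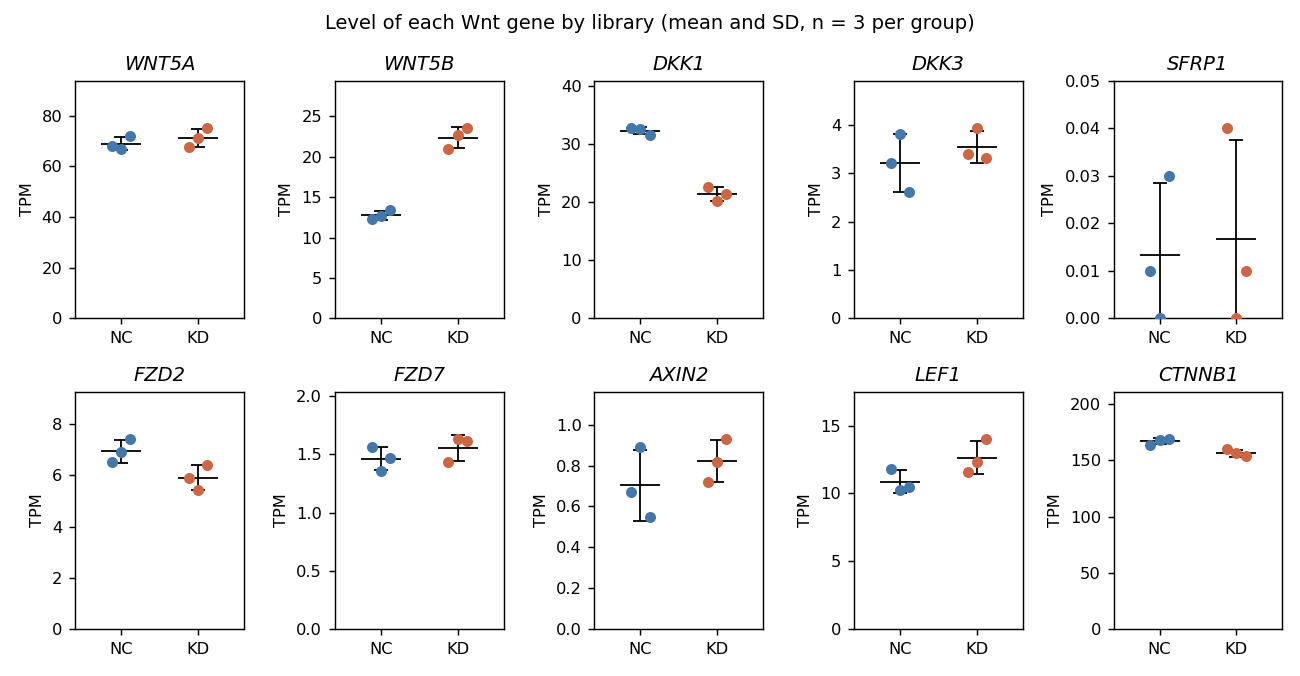
TPM of each of the 10 Wnt genes (vertical axis from 0, a separate scale per gene) in the 3 NC and the 3 KD libraries, one point per library in the order of its number, with the mean as a horizontal line and the SD as bars. The KD points of WNT5B lie above and those of DKK1 below all NC points, whereas those of WNT5A, DKK3, FZD7, AXIN2, LEF1 and SFRP1 overlap with NC.

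Among the ligands, WNT5B (ENSG00000111186; chromosome 12, 1529891 to 1647243, plus strand) was 12.28, 12.68 and 13.36 TPM in NC and 20.94, 22.70 and 23.51 TPM in KD. Every KD library was above every NC library. The mean rose from 12.8 ± 0.546 to 22.4 ± 1.31 TPM (SD, n = 3 each), a ratio of 1.75 (0.76 on the log2 scale, SE 0.0576, limma adjusted p = 0.000197), and the rise ranked 302 among all 13722 tested genes. FBXL14, a protein-coding gene on the opposite strand within the span of WNT5B, was 13.4 ± 2.07 TPM in NC and 11.2 ± 0.512 TPM in KD (SD, n = 3 each, limma adjusted p = 0.13). Whether the authors' counting used the strand is not given in the sources used here, so reads from such overlapping genes may not be separated.

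WNT5A (ENSG00000114251; chromosome 3, 55465715 to 55490539, minus strand), the paralog of WNT5B, was 67.79, 66.99 and 71.87 TPM in NC and 67.58, 70.97 and 74.90 TPM in KD. The groups overlapped. Its log2 fold change was 0.05 with a 95% confidence interval from -0.07 to 0.16 (limma adjusted p = 0.494), an interval that lies below the change of WNT5B. The antisense gene WNT5A-AS1, which overlaps it, was 2.73 ± 0.284 TPM in NC and 3.97 ± 1.34 TPM in KD (SD, n = 3 each, limma adjusted p = 0.222).

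The pair of paralogs was compared within each library, where a ratio of TPM does not depend on the scaling of the library. WNT5A was 5.52, 5.28 and 5.38 times as abundant as WNT5B in NC and 3.23, 3.13 and 3.19 times as abundant in KD. The log2 ratio that was tested, taken from log2(TPM + 1) and so not wholly free of scaling, was lower in all KD libraries than in all NC libraries, by -0.72 (exact two-sided permutation test, p = 0.10, the smallest p that 3 libraries against 3 allow, and 0.10 when adjusted over the 3 pairs compared).

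Of the secreted inhibitors, DKK1, which blocks canonical signaling by binding LRP5 and LRP6, was the most abundant and the one that fell. LRP5 was scarce, at 0.17, 0.21 and 1.43 TPM in NC and 0.07, 0.12 and 0.05 TPM in KD, and was below the limit for testing. LRP6 was 3.55 ± 0.136 TPM in NC and 3.59 ± 0.307 TPM in KD (SD, n = 3 each, limma adjusted p = 0.949). DKK1 (ENSG00000107984; chromosome 10, 52314296 to 52318042, plus strand) was 32.71, 32.65 and 31.67 TPM in NC and 22.68, 20.19 and 21.35 TPM in KD. Every KD library was below every NC library. The mean fell from 32.3 ± 0.584 to 21.4 ± 1.25 TPM (SD, n = 3 each), a ratio of 0.662 (-0.57 on the log2 scale, SE 0.0489, limma adjusted p = 0.000311), and the fall ranked 687 among all tested genes. It is the gene whose promoter is shown above with 2 TCF/LEF motif matches. PRKG1-AS1, an antisense gene that overlaps the start of DKK1, was 2.02 ± 0.347 TPM in NC and 1.93 ± 0.335 TPM in KD (SD, n = 3 each).

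DKK3 (ENSG00000050165; chromosome 11, 11963106 to 12009769, minus strand), a divergent member of the Dickkopf family, was 3.21, 3.81 and 2.61 TPM in NC and 3.40, 3.93 and 3.31 TPM in KD. The groups overlapped, and the log2 fold change was 0.12 with a 95% confidence interval from -0.19 to 0.43 (limma adjusted p = 0.514). The log2 ratio of DKK1 to DKK3 was lower in all KD than in all NC libraries, by -0.69 (exact two-sided permutation test, p = 0.10, 0.10 when adjusted over 3 pairs). SFRP1 (ENSG00000104332; chromosome 8, 41261958 to 41309497, minus strand), which binds Wnt proteins directly, was 0.01, 0 and 0.03 TPM in NC and 0.04, 0 and 0.01 TPM in KD. These values lie at the rounding step of the table, and no difference could be read from them.

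In NC the 10 genes ranked CTNNB1, WNT5A, DKK1, WNT5B, LEF1, FZD2, DKK3, FZD7, AXIN2 and SFRP1 by TPM, and the ranges of no neighboring genes overlapped. In KD the order was the same except that WNT5B and DKK1 had ranges that overlapped. DKK1 was 2.66, 2.57 and 2.37 times as abundant as WNT5B in NC and 1.08, 0.889 and 0.908 times as abundant in KD. This ratio was chosen after the values were seen and was not tested. In bulk RNA, fewer cells that express a gene and less RNA per cell cannot be told apart.

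Both receptors were of low abundance. FZD2 (ENSG00000180340; chromosome 17, 44557459 to 44559570, plus strand) was 6.51, 6.91 and 7.42 TPM in NC and 5.92, 5.42 and 6.40 TPM in KD. All KD values lay below all NC values, but the log2 fold change of -0.20 (95% confidence interval -0.39 to -0.0097) did not pass the adjusted threshold (limma adjusted p = 0.095). FZD7 (ENSG00000155760; chromosome 2, 202034587 to 202038445, plus strand) was 1.56, 1.36 and 1.47 TPM in NC and 1.43, 1.63 and 1.61 TPM in KD. These overlapped, and the log2 difference was 0.05 (95% confidence interval -0.21 to 0.32, limma adjusted p = 0.746). The log2 ratio of FZD2 to FZD7 was lower in all KD than in all NC libraries by -0.26 (exact two-sided permutation test, p = 0.10, 0.10 when adjusted over 3 pairs). By TPM, FZD2 was 4.17, 5.08 and 5.05 times as abundant as FZD7 in NC and 4.14, 3.33 and 3.98 times in KD. The separation was thus narrow, with NC replicate 1 and KD replicate 1 almost level.

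CTNNB1 (ENSG00000168036; chromosome 3, 41194741 to 41260096, plus strand) was the most abundant of the 10 genes and ranked 906 by mean level among all tested genes. It was 163.95, 168.44 and 168.89 TPM in NC and 159.78, 156.32 and 153.54 TPM in KD, without overlap. The mean fell from 167.1 ± 2.73 to 156.6 ± 3.13 TPM (SD, n = 3 each; -0.09 on the log2 scale, SE 0.0245, limma adjusted p = 0.0265), close to the median of -0.06 over all tested genes. With median-of-ratios scaling, which moved that median to 0.0024, CTNNB1 differed by -0.02 on the log2 scale (limma adjusted p = 0.492), and with quantile normalization it was -0.05 (limma adjusted p = 0.263). The call was also lost with no mean-variance trend (limma adjusted p = 0.092), and without NC replicate 2, NC replicate 3, KD replicate 2 or KD replicate 3, where the log2 fold change was -0.09 to -0.08 (limma adjusted p 0.0645 to 0.0771). ULK4, a protein-coding gene that overlaps CTNNB1 on the opposite strand, was 17.1 ± 4.12 TPM in NC and 10.4 ± 2.06 TPM in KD (SD, n = 3 each, limma adjusted p = 0.0498).

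LEF1, a DNA-binding partner of β-catenin, and AXIN2, a scaffold of the destruction complex, are also transcriptional targets of canonical signaling. LEF1 (ENSG00000138795; chromosome 4, 108047545 to 108168956, minus strand) was 11.84, 10.29 and 10.50 TPM in NC and 11.62, 12.29 and 14.01 TPM in KD. KD replicate 1 lay within the NC range, and the log2 fold change of 0.20 (95% confidence interval -0.0056 to 0.40) did not pass the threshold (limma adjusted p = 0.117). AXIN2 (ENSG00000168646; chromosome 17, 65528563 to 65561647, minus strand), the most widely used readout of canonical signaling, was 0.67, 0.89 and 0.55 TPM in NC and 0.72, 0.82 and 0.93 TPM in KD. The groups overlapped. In a limma fit with no limit on low values its log2 fold change, on log2(TPM + 1), was 0.10. The 95% confidence interval ran from -0.19 to 0.39 (limma adjusted p = 0.646), so a change of moderate size could not be seen at this level. The ratio of the mean TPM of AXIN2, KD to NC, was 1.17, and adding 1 to TPM shrinks the change of so scarce a gene.

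**Figure D2:**
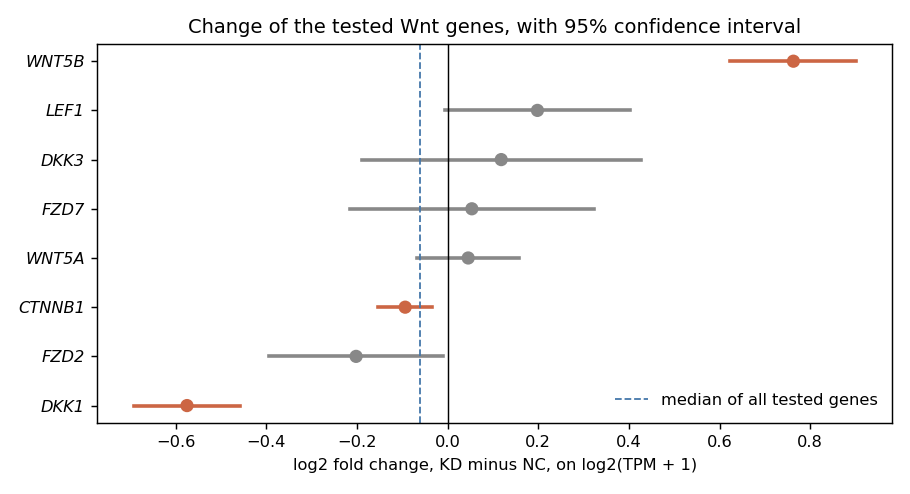
Log2 fold change (KD minus NC, on log2(TPM + 1), horizontal axis) of the 8 tested Wnt genes with the 95% confidence interval of limma as a line; colored genes passed the adjusted threshold and gray genes did not. WNT5B at 0.76 and DKK1 at -0.57 stand far from 0, while CTNNB1 at -0.09 lies near the median of all tested genes, drawn as a dashed line.

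The other genes of the pathway were taken from lists by role. The lists covered ligands, secretion factors, inhibitors, receptors, the R-spondin module, destruction complex members, nuclear factors, targets and planar polarity genes. These held 93 further genes, of which 46 were tested, 47 were below the limit and, of those, 16 were listed at 0 TPM in every library. Of the 46, 6 were lower and 11 higher at an adjusted p under 0.05, together 37.0%, against 36.1% of all tested genes. Their median log2 fold change was 0.0024, against -0.06. With median-of-ratios scaling 5 were lower and 12 higher, and with quantile normalization 4 were lower and 12 higher. The count of higher genes was 5 without NC replicate 1, 8 without NC replicate 2, 7 without NC replicate 3, KD replicate 1 or KD replicate 3, and 6 without KD replicate 2. WNT10B, which reached the limit for testing only through its KD level, is in the 11 and in each of these counts. It was called in all 14 alternatives that tested it.

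Of the 19 Wnt ligands, 5 were tested, and WNT5B, WNT7B and WNT10B were higher, where 12.1% of all tested genes were higher. WNT7B, a ligand of the canonical branch, rose from 69.8 ± 2.57 to 83.8 ± 2.17 TPM (SD, n = 3 each, 0.26 on the log2 scale, limma adjusted p = 0.00222). It was about as abundant as WNT5A in NC. In KD it was 81.44 to 85.66 TPM, above the 67.58 to 74.90 TPM of WNT5A. WNT10B was scarce and rose from 0.763 ± 0.196 to 1.94 ± 0.333 TPM (SD, n = 3 each, 0.74 on the log2 scale, limma adjusted p = 0.0115). Its NC mean lay below the limit of 1 TPM, so it was tested only through its KD level. It therefore lends no weight to the count of higher ligands. The ratio of its mean TPM, KD to NC, was 2.54, and adding 1 to TPM shrinks the change of so scarce a gene. The summed TPM of the 19 ligands was 152.9, 150.7 and 161.1 in NC and 179.7, 183.2 and 185.4 in KD, so that all KD libraries were above all NC libraries. WNT5B made up 8.25% ± 0.196 of that sum in NC and 12.2% ± 0.529 in KD, WNT5A 44.5% ± 0.146 and 38.9% ± 1.40, and WNT7B 45.0% ± 0.127 and 45.9% ± 1.88 (SD, n = 3 each). The share of WNT5A was smaller in KD although its TPM overlapped between the groups.

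Of the secretion factors, PORCN, the enzyme that attaches the lipid to Wnt proteins, rose from 17.0 ± 0.315 to 22.95 ± 0.917 TPM (log2 fold change 0.41, limma adjusted p = 0.000745). WLS, which carries Wnt proteins to the cell surface, fell from 82.1 ± 1.09 to 75.2 ± 0.761 TPM (log2 fold change -0.12, limma adjusted p = 0.00868). The fall of WLS was not called with median-of-ratios scaling (log2 fold change -0.06, limma adjusted p = 0.144) or quantile normalization (-0.06, limma adjusted p = 0.109). Of the 15 secreted inhibitors, DKK1 and DKK3 reached the limit for testing. SFRP2, the most abundant of the others, was 0.253 ± 0.0651 TPM in NC and 0.403 ± 0.127 TPM in KD (SD, n = 3 each).

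Of the 18 receptors and co-receptors, 10 were tested, and 1 was lower and 1 higher. These made 20.0% of those tested, beside 36.1% of all tested genes called in either direction. The summed TPM of the 10 frizzled genes was 35.1, 34.7 and 36.6 in NC and 34.5, 33.3 and 34.4 in KD. FZD2 made up 19.6% ± 0.921 of it in NC and 17.4% ± 1.17 in KD, and FZD7 4.13% ± 0.278 and 4.58% ± 0.384 (SD, n = 3 each), and FZD6 was the largest part in every library. PTK7, a co-receptor of the planar polarity branch, rose from 5.26 ± 1.01 to 8.37 ± 0.979 TPM (log2 fold change 0.59, limma adjusted p = 0.0162). KREMEN1, a partner of DKK1 at the cell surface, fell from 4.94 ± 0.43 to 3.67 ± 0.312 TPM (log2 fold change -0.35, limma adjusted p = 0.0262). Each of these calls was lost in 4 of the fits that left out 1 library, PTK7 without NC replicate 1, NC replicate 3, KD replicate 1 or KD replicate 2 (0.50 to 0.57, limma adjusted p 0.0533 to 0.0619) and KREMEN1 without NC replicate 1, NC replicate 3, KD replicate 2 or KD replicate 3 (-0.35 to -0.29, limma adjusted p 0.073 to 0.079). RYK, a tyrosine kinase-like receptor of WNT5A, was the most abundant receptor outside the 10 genes at 23.3 ± 0.559 TPM in NC and 22.4 ± 1.64 TPM in KD (limma adjusted p = 0.503).

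Of all tested genes, 36.1% were called in either direction. None of the 3 tested genes of the R-spondin module (RSPO3, LGR4 and ZNRF3), out of 9 in the list, passed limma's test. None of these had an unadjusted p under 0.05. LGR4, an R-spondin receptor and the most abundant of them, was 13.5 ± 0.829 TPM in NC and 14.0 ± 0.45 TPM in KD (SD, n = 3 each). All 13 genes of the cytoplasmic relay and destruction complex were tested, and 10 did not pass. The called share was 23.1%, beside 36.1% of all tested genes. Besides CTNNB1, CSNK1A1, the kinase that primes β-catenin for degradation, rose from 89.2 ± 5.85 to 104.2 ± 2.98 TPM (log2 fold change 0.22, limma adjusted p = 0.0157). DVL1, which relays the signal from frizzled receptors, rose from 47.1 ± 3.63 to 53.8 ± 0.553 TPM (log2 fold change 0.19, limma adjusted p = 0.037). The call of CSNK1A1 was lost without NC replicate 1 or KD replicate 3 (0.20 to 0.22, limma adjusted p 0.0536 to 0.0571), and that of DVL1 was lost when any library but NC replicate 3 was left out (0.15 to 0.20, limma adjusted p 0.0805 to 0.113).

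Among 10 tested nuclear factors, 2 were lower and 1 was higher, 30.0% in all and near the 36.1% of all tested genes. BCL9L and PYGO1, which encode coactivators that bind β-catenin directly or through a partner, fell from 16.7 ± 0.532 to 12.8 ± 0.642 TPM and from 3.73 ± 0.129 to 2.70 ± 0.156 TPM (log2 fold changes -0.36 and -0.36, limma adjusted p of 0.0026 and 0.0159). The call of PYGO1 was lost with no limit on low values. TCF7, a DNA-binding factor of the same family as LEF1 and the most abundant nuclear factor listed, rose from 25.1 ± 0.465 to 31.3 ± 1.59 TPM (log2 fold change 0.31, limma adjusted p = 0.003).

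Of the 15 feedback and target genes, 7 were tested, with 1 lower and 3 higher, against 24.0% lower and 12.1% higher of all tested genes. LEF1, SP5 and ZNRF3 did not pass (limma adjusted p = 0.117, 0.936 and 0.691), and 8 genes were below the limit. TCF7 is counted both here and among the nuclear factors. CCND1, which encodes cyclin D1, fell from 311.0 ± 1.26 to 214.7 ± 2.57 TPM (log2 fold change -0.53, limma adjusted p = 8.18e-06). TCF7, named above, and TNFRSF19 rose, the latter from 2.33 ± 0.127 to 3.19 ± 0.195 TPM (log2 fold change 0.33, limma adjusted p = 0.0285). MYC, named after its value was seen, rose from 58.5 ± 3.12 to 65.1 ± 1.80 TPM (log2 fold change 0.15, limma adjusted p = 0.0411). The call of TNFRSF19 was lost without NC replicate 1, NC replicate 3, KD replicate 1 or KD replicate 2 (0.30 to 0.33, limma adjusted p 0.0627 to 0.0765), and that of MYC was lost whichever library was left out (0.11 to 0.18, limma adjusted p 0.0552 to 0.115).

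In the planar polarity module, 6 of 9 genes were tested, and 1 was lower and 2 were higher, beside a background of 36.1% called in either direction. VANGL1, a membrane protein of the core polarity complex, fell from 19.9 ± 0.445 to 13.3 ± 0.515 TPM (log2 fold change -0.55, limma adjusted p = 0.000281). CELSR3, a cadherin of the same complex, rose from 3.79 ± 0.0781 to 4.97 ± 0.0755 TPM (log2 fold change 0.32, limma adjusted p = 0.0105). PRICKLE2 rose from 8.89 ± 0.236 to 10.1 ± 0.136 TPM (log2 fold change 0.17, limma adjusted p = 0.0342), a call that was lost whichever library was left out (0.15 to 0.19, limma adjusted p 0.0611 to 0.0989). SDs of this and the previous paragraphs are over 3 libraries per group.

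**Figure D3:**
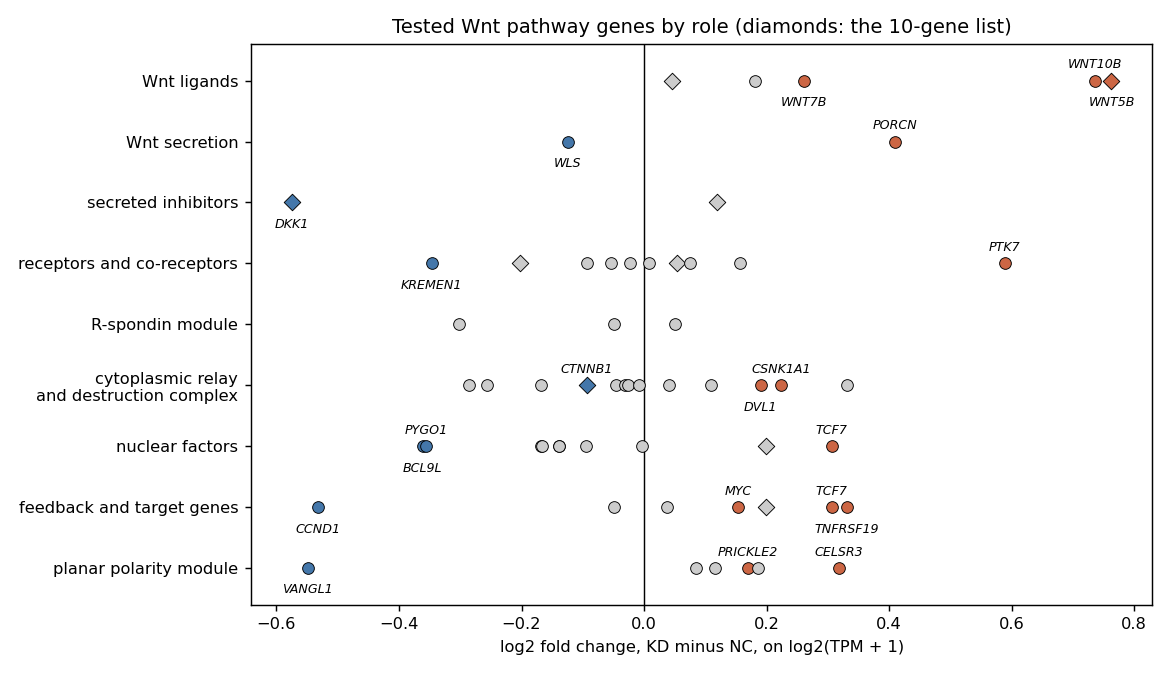
Log2 fold change (KD minus NC, on log2(TPM + 1), horizontal axis) of the 54 tested Wnt pathway genes by role, with diamonds for the genes of the 10-gene list, colors for genes past the adjusted threshold (orange higher, blue lower) and gray for the others; a gene with 2 roles is drawn in both. Colored points lie on either side of 0 within several roles, and no gene reaches a change of 1 on this scale. The added 1 shrinks the change of scarce genes such as WNT10B.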

How the data were processed

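RNA of 6 U87-MG libraries (3 NC, 3 KD, grouped by title) was sequenced with paired-end reads. The deposited table holds TPM per gene in each library, as computed by the authors and rounded to 2 decimals. The submitters' processing notes name fastp, RSEM and GRCh38.p13, and the aligner and annotation are not given in the sources used here. The paper and the labels name different extraction and library kits. Read depth cannot be recovered from TPM and is unknown, no counting error is given, and a change in abundant genes shifts all others. All 6 columns were assigned by name.

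Symbols came from the table of gene names (61369 of 61541 Ensembl identifiers matched), coordinates from GENCODE 29 (GRCh38) and promoters from RefSeq. log2(TPM + 1) was fitted with limma 3.58.1 in R 4.3.3 (mean-variance trend, group as the only term, genes averaging 1 TPM or more), which gave every adjusted p-value of a gene, over all tested genes. The paper states no test for the transcriptome beyond its two-sided comparisons of groups. Ratios within libraries were compared by exact permutation tests.

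The genes and lists were chosen with earlier results of these data known. Named genes were the 10 members, CHRM3, the markers and, in each pathway list, the most abundant further gene and up to 3 further genes with the largest called change. Of the list symbols, 1 (TIKI1) had no match, and 1 leukocyte marker is not reported here. Genes that overlap the members, the motif search and the ratio of DKK1 to WNT5B were added after the values were seen. LRP5, LRP6, RSPO3, SP5 and ZNRF3 were also named after the values were seen. Alternatives changed the pseudocount, the limit on low values, the scaling, the trend, a replicate block and the libraries used.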

Additional observations from a re-analysis of the deposited data

How the results depend on the processing

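The rise of WNT5B (log2 fold change 0.73 to 0.84) and the fall of DKK1 (-0.62 to -0.49) kept their direction and stayed past the threshold in all 15 alternative fits, whereas the call of CTNNB1 was kept in 7 of them (-0.11 to -0.02 over all 15). The other 5 tested members kept their direction and stayed on the same side of the threshold in every alternative that tested them; with a limit of 5 TPM, DKK3 and FZD7 were not tested. With a log2 change of 1 in size also required in the main limma fit, 0 members and 0 further pathway genes were called. At an adjusted p under 0.05 alone, 2 members were lower and 1 higher, and 6 further genes were lower and 11 higher, with WNT10B among the 11. An unadjusted p under 0.05 was reached by 4 members and 20 further genes, and no share of all tested genes was taken at that limit. Adding 1 to TPM shrinks the change of scarce genes, and WNT10B reached 1.25 on the log2 scale in an alternative fit. The number of lower members was 1 with median-of-ratios scaling, quantile normalization or no trend, and 1 to 2 when 1 library was left out. The number of higher pathway genes was 5 to 8 when 1 library was left out; that each such fit has fewer libraries is part of its construction. With no limit on low values, the calls of KREMEN1, DVL1, PYGO1, TNFRSF19, MYC and PRICKLE2 were lost, those of DVL1, MYC and PRICKLE2 also with a limit of 0.1 TPM, those of DVL1 and MYC also with no trend, and that of KREMEN1 with quantile normalization; the cause was not tested. No pairing by replicate number was seen in the values. The deviations of same-numbered libraries from their group means correlated by -0.0198, 0.0341 and 0.0334, and not every library correlated best with its own number. These correlations cannot tell whether same-numbered libraries were handled together. With the replicate block, the calls of CTNNB1, KREMEN1, PYGO1, DVL1, TNFRSF19, MYC and PRICKLE2 were lost, 1 member was lower and 1 higher, 4 further pathway genes were lower and 8 higher, and the log2 ratios were -0.72 (WNT5A to WNT5B), -0.69 (DKK1 to DKK3) and -0.26 (FZD2 to FZD7). These ratios were lower in every alternative run for them. The difference in CHRM3 was -0.065 to -0.0017 TPM when 1 library was left out. Unknown depth and rounding limit what can be said of SFRP1, AXIN2 and CHRM3.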
